A study of Rattus norvegicus with 45 samples.

Results

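The genes described here are 35 members of the nuclear receptor superfamily and its coregulators, taken by name from a fixed list: retinoid receptors (Rara, Rarb, Rarg, Rxra, Rxrb, Rxrg), PPARs (Ppara, Ppard, Pparg), the ROR and REV-ERB receptors (Rora, Rorb, Nr1d2), the vitamin D and xenobiotic receptors (Vdr, Nr1i2, Nr1i3), orphan receptors (Nr2c1, Nr2c2, Nr2e1, Nr2f1, Nr2f2, Nr2f6, Nr5a1, Nr5a2, Nr6a1, Hnf4a), 2 receptors without a DNA-binding domain (Nr0b1, Nr0b2), coactivators (Ncoa1, Ncoa2, Ncoa3, Ncoa4, Ncoa6, Ncoa7, Med1) and the corepressor Ncor1. All 35 were among the 40643 genes of both count tables. They were measured by 3' Tag-seq, which counts 1 short tag near the 3' end of each RNA, in medial preoptic area of rat pups on postnatal day 10. The question was how prenatal bisphenols, alone and together with the dam's later care, alter this hypothalamic region in each sex. Dams were dosed from gestation day 8 until they gave birth, in 4 exposures: 50 µg/kg bisphenol A (BPA; 6 female and 5 male libraries), 50 µg/kg of a mixture of BPA, bisphenol S and bisphenol F in equal parts (mixture 50; 6 and 6), 150 µg/kg of that mixture (mixture 150; 5 and 6) and corn oil, the vehicle (5 and 6). Mixture 50 thus matches BPA in total dose, and mixture 150 carries the same amount of BPA itself. Licking/grooming of the pups and nest attendance were scored in the dams over the first postnatal days. No strain, allele or transgene is named in the labels, and library names together with shared care scores place the pups in 24 litters, 6 per exposure, 21 of which gave a library of each sex.

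Nuclear receptors are transcription factors whose activity is set by small lipid-soluble ligands. A ligand such as retinoic acid, a fatty acid or vitamin D reshapes the receptor so that it releases corepressors such as Ncor1 and binds coactivators such as the p160 proteins Ncoa1, Ncoa2 and Ncoa3 and the Mediator subunit Med1. Many of them, the retinoic acid receptors, PPARs, vitamin D receptor and xenobiotic receptors among them, bind DNA as heterodimers with an RXR, so the RXRs are shared partners of several hormone systems, and the same coactivators serve the oestrogen and androgen receptors that shape this region in newborn rodents.

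Total counts were 4397460 to 7223180 per female library and 4747460 to 6740040 per male library, and levels are given as CPM, counts scaled to library size with TMM factors over all 45 libraries. In each library Xist and the Y-linked Eif2s3y (at most 0.846 CPM in females and at least 21.6 CPM in males) matched the labelled sex. The tissue label was checked with 9 preoptic markers, whose summed level was 58.0 to 140.1 CPM. Hmx3 was at 0 in every library, Hmx2 at a median of 0 and Gal at 0 to 2.59 CPM. Esr1, the oestrogen receptor, was at 9.83 to 18.3 CPM. The others were present in every library, with Nts at 20.2 to 37.3 CPM and Calcr at 5.69 to 58.5 CPM. Moxd1 was at 5.52 to 11.9 CPM, Prlr at 3.54 to 14.3 CPM and Nkx2-1 at 2.20 to 14.6 CPM. The 12 markers of striatal projection neurons summed to 473 to 1933 CPM, a 4.09-fold range between libraries. With 1 pup of a sex per litter and 5 or 6 per group, p-values of the fits within a sex measure the spread between litters. Dams were assigned in pairs that shared a cage, and which litters formed a pair is not in the labels, so a shared cage is left out of account. Fewer cells of a type and less RNA per cell cannot be told apart in tissue of this kind.

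Promoters are shown for the 3 receptors on which the results turn most: Rarb and Rxrg, whose levels moved together between libraries, and Rora, which lay nearest to an exposure difference. Each is the RefSeq window from 250 bases before to 50 bases after the annotated start, in build GRCr8 and read along the gene, and capitals mark motif matches. The motifs searched on both strands were the receptor half-sites AGGTCA and AGTTCA, the direct repeat of GTTCA and AGTTCA with 5 bases between them (which contains the second half-site) and the GC box GGGCGG.
Rarb, chr15:11336142-11336441, plus strand: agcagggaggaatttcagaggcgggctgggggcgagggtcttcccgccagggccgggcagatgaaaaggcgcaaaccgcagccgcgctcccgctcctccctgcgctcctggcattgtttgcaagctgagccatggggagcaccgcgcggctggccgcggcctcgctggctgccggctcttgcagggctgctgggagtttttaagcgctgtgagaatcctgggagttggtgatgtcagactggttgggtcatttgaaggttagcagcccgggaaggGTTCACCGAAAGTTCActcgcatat
Rxrg, chr13:82276237-82276536, plus strand: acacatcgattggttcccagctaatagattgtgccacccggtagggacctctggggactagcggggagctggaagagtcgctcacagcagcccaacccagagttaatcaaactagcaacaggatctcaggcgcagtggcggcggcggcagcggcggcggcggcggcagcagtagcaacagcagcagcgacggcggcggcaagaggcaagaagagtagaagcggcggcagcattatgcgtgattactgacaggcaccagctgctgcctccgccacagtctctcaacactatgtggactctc
Rora, chr8:78816005-78816304, plus strand: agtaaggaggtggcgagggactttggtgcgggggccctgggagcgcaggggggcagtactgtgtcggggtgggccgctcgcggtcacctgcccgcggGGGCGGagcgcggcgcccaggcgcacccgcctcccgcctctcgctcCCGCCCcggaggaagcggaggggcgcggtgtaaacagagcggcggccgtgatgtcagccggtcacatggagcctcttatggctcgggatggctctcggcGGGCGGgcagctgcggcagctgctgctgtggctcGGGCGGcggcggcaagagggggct
The capitals in the Rarb window are the direct repeat, which begins 26 bases after the start. This arrangement is the textbook retinoic acid response element through which retinoic acid induces Rarb. The half-sites searched were those of this known element, so its presence in the Rarb window was no test. These exact half-sites with this spacing stood in 9 of 33469 promoters of this length (0.0269%). Direct repeats of other half-sites were not searched. The capitals in the Rora window are GC boxes, found in 33.1% of all promoters and in 61.1% of the 36 windows listed for 30 members. These shares were not matched for GC content, which was 74.7% in the Rora window against a median of 51.7% over all promoters. Rxrg held none of the motifs. AGGTCA stood in 16.7% of the members' windows, against 16.2% of all promoters, and AGTTCA in 13.9% against 14.5%. A match describes letters only and shows no binding.

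Because 1 tag is counted per RNA, CPM does not scale with transcript length, and the members can be ordered on it, within the limits of how well each 3' end was annotated. Rora, a constitutively active orphan receptor that drives Bmal1 and matters for cerebellar neurons, was the most abundant at 363 ± 45.1 CPM (SD, n = 45). Ncor1 followed at 247 ± 8.23 CPM, Ncoa1 at 228 ± 19.7 CPM and Rarb at 186 ± 59.4 CPM, and the ranges of these neighbours overlapped. The coregulators were all well counted, from 52.7 CPM for Ncoa4, a coactivator better known as the ferritin autophagy receptor, upwards. Retinoid receptors ran from Rarb through Rxrg (42.0 CPM), Rxrb (32.8 CPM), Rara (10.8 CPM) and Rxra (8.01 CPM) to Rarg (3.03 CPM). Among the PPARs, Ppard (13.0 CPM) and Ppara (7.91 CPM) stood above Pparg (1.28 CPM). The orphan receptors Nr2c2, Nr2c1, Nr2f2 and Nr2f1 were at 74.0, 38.2, 29.2 and 21.2 CPM, Nr2f6 at 9.86 CPM and Nr2e1, which keeps neural stem cells undifferentiated, at 5.78 CPM. Nr1d2 (REV-ERB beta, a clock repressor) averaged 41.4 CPM, Rorb 37.1 CPM and Nr6a1 33.3 CPM.

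Too low to test in females were 8 members: Pparg, Vdr, Nr1i2, Nr5a1, Nr5a2, Hnf4a, Nr0b1 and Nr0b2. Of these, Pparg and Hnf4a (1.39 CPM) passed the filter in males, which left 27 members tested in females and 29 in males. The lowest were Nr5a1, the steroidogenic factor of the ventromedial hypothalamus and gonads, with 9 counts in all and 0 in 37 of 45 libraries, Nr0b1 with 34 counts, Vdr with 66, Nr0b2 with 74 and Nr1i2, the pregnane receptor PXR, with 130. Nr5a2 averaged 1.18 CPM. A count of 0 in a library still allows up to 3 counts at this depth, for counting error only, so these levels are low rather than absent. The level of Nr1i3 (57.9 CPM), the xenobiotic receptor CAR of liver, is uncertain, because its annotated span overlaps that of Tomm40l, a mitochondrial import gene. Counts of Nr1i3 were 248 to 421 per library, against 259 to 436 for Tomm40l, and the 2 differed by -1 to 22 counts in any library. Among 18 members that overlap another RefSeq gene, 6 overlap a protein-coding one, and the strand setting of the counting is not given in the sources used here.

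**Figure D1:**
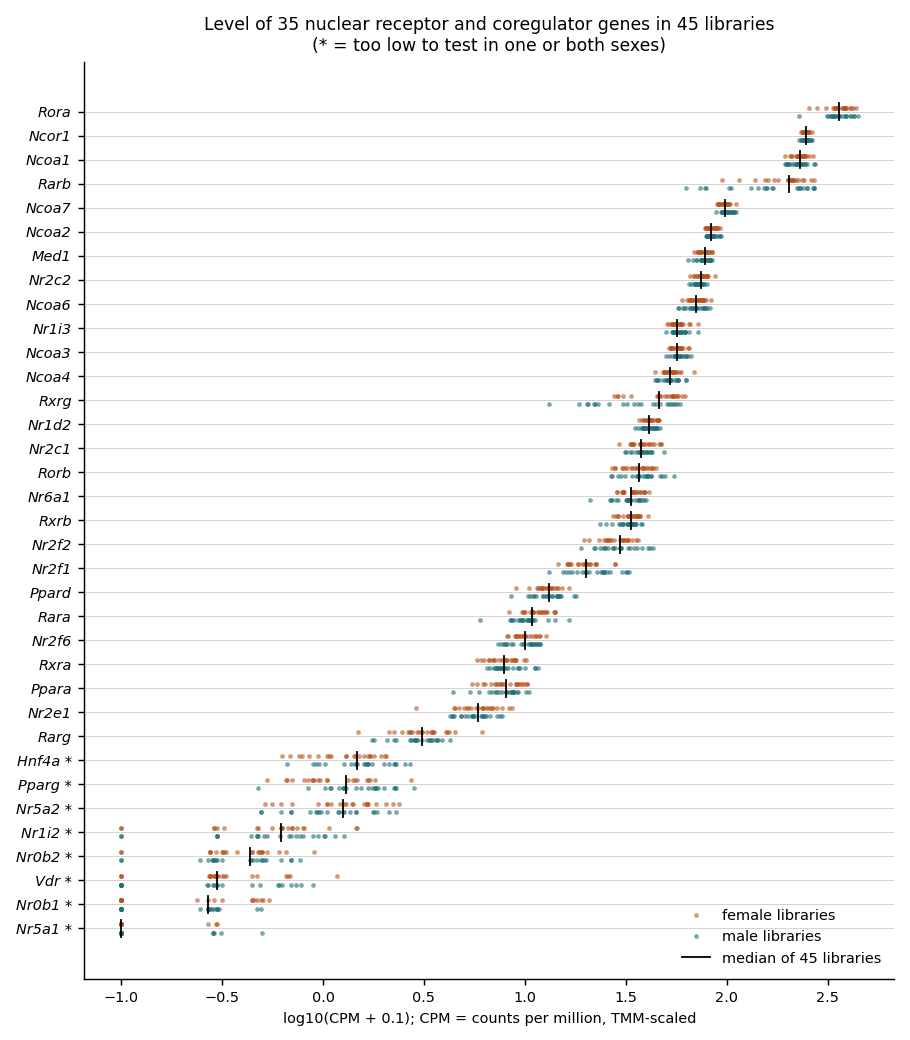
Level of each of the 35 genes in 45 libraries on a log10(CPM + 0.1) axis, females above males in each row, with the median of all libraries as a black bar. Rora, Ncor1, Ncoa1 and Rarb lie at the top, Rarb and Rxrg have the widest spread among the well-counted genes, and Nr5a1 is at 0 in 37 of 45 libraries.

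The members differed greatly in how steady they were. Ncor1, the corepressor scaffold that carries Hdac3, varied by 3.33% (coefficient of variation) over all 45 libraries, and Ncoa2 and Ncoa7 by 5.12% and 5.70%. Among members above 20 CPM, Rarb and Rxrg varied most: Rarb ranged from 62.9 to 272 CPM and Rxrg from 13.1 to 61.9 CPM, 4.33-fold and 4.72-fold, with coefficients of variation of 31.9% and 32.6%. Nr2f1 (22.5%), Nr2f2 (19.5%) and Rorb (17.2%) came next. Members with few counts spread as far or farther, with 4.37-fold for Rarg, 4.89-fold for Hnf4a, 5.82-fold for Nr5a2 and 7.26-fold for Pparg, at means of 3.03 CPM or less.

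Rarb and Rxrg, the retinoid receptors typical of striatum, were high and low in the same libraries within every exposure. In BPA males Rarb was at 249, 251, 272, 222 and 153 CPM, and Rxrg at 58.8, 53.1, 54.3, 56.5 and 22.8 CPM, the lowest of each in the same library. Their levels followed, in the same libraries, the striatal score, the mean log2 CPM of 11 striatal marker genes, among them the dopamine receptors Drd1 and Drd2 and the adenosine receptor Adora2a. After each exposure group's mean was removed, Rarb correlated with this score at r = 0.911 in 22 females (Spearman's rho = 0.825, permutation p = 2e-05, adjusted p = 0.000784) and at r = 0.950 in 23 males (rho = 0.959, permutation p = 1e-05, the smallest the permutations can give, adjusted p = 0.000225). For Rxrg the values were r = 0.839 in females (rho = 0.775, permutation p = 0.00013, adjusted p = 0.00285) and r = 0.936 in males (rho = 0.942, permutation p = 1e-05, adjusted p = 0.000225). Without the 2 libraries farthest from the median score, r was 0.824 and 0.948 for Rarb and 0.744 and 0.934 for Rxrg, in females and in males.

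Of the 11 members that passed in males, 8 rose with the score, Rarb and Rxrg among them, and 3 ran against it. Rorb, a receptor of sensory and cortical neurons, gave r = -0.812 (rho = -0.878, adjusted permutation p = 0.000225), Nr2f1 (COUP-TFI), a patterning receptor, r = -0.748 (rho = -0.755, adjusted permutation p = 0.00158), and Nr2f2 (COUP-TFII) r = -0.604 (rho = -0.582, adjusted permutation p = 0.0381). In females the 3 gave r = -0.529, -0.403 and -0.051 and did not pass. Ncoa7 passed in females, with r = -0.676 (rho = -0.637, adjusted permutation p = 0.0171), and had r = -0.179 in males, where it did not pass. Nr2c2 (TR4) passed in both sexes, at r = 0.685 and 0.604. Whether these correlations differ between the sexes was not tested.

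In all, 5 of 27 members passed in females, where 14.6% of all 18343 genes did, and 11 of 29 in males, where 26.1% of 18415 genes did. Against the score of 6 preoptic genes, 3 members passed in females (9.41% of all genes) and 11 in males (25.7%), Rarb and Rxrg with negative r (-0.721 and -0.720 in females, -0.887 and -0.880 in males) and Rorb in males with r = 0.817. Scores were computed for 10 marker lists in each sex, with p-values adjusted over all genes within each. In males 6 members passed for oligodendrocytes (10.4% of all genes) and 8 for astrocytes (13.8%), and no member passed for them in females (0%). No member passed for the other 6 lists. All genes passed there at 0% in females and 0.00543% in males for cortical neurons, 0.311% and 0.0869% for ependymal cells, 5.08% and 0.538% for meningeal cells, 0.343% and 0% for endothelial cells, 0% in both sexes for microglia, and 0.365% and 0.0217% for red blood cells.

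**Figure D2:**
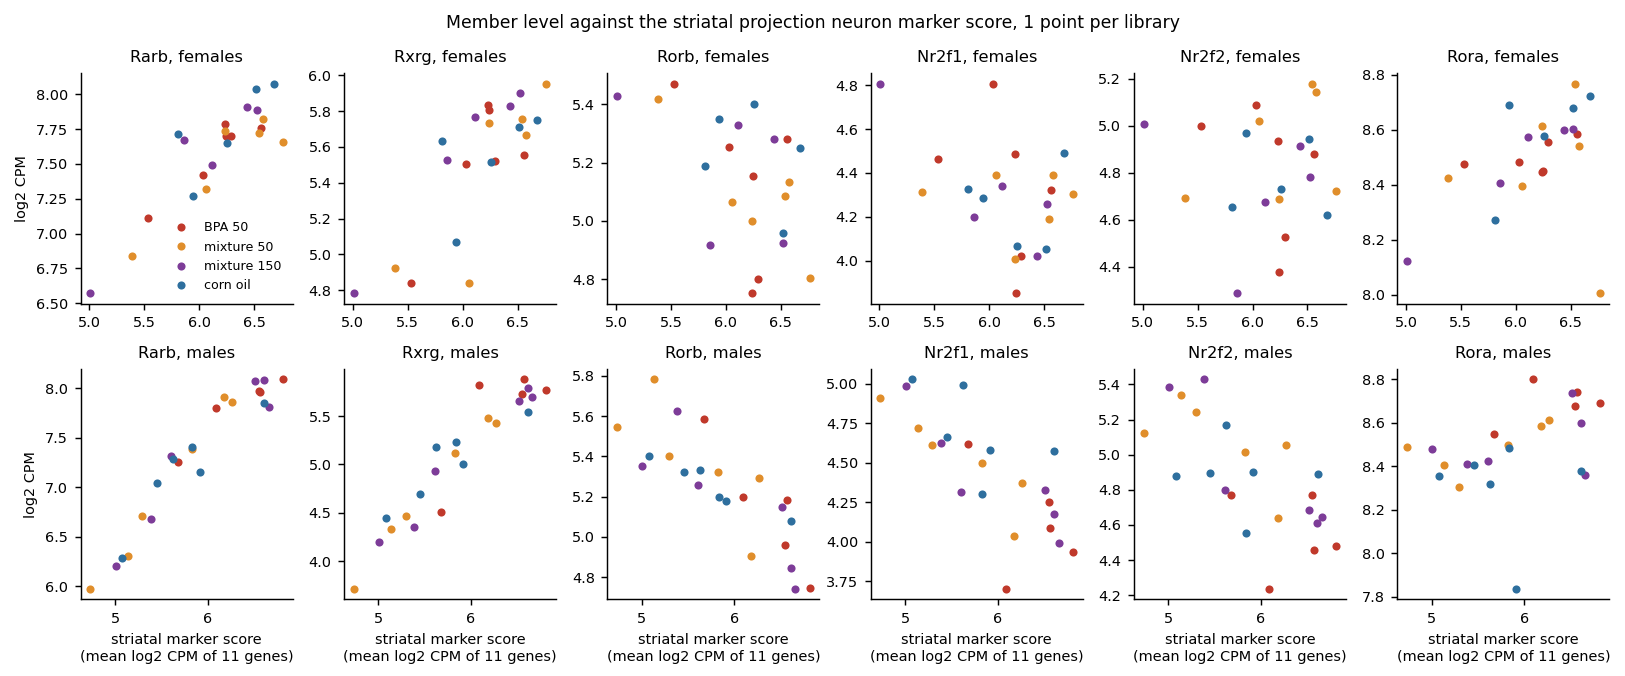
Level of 6 members (log2 CPM) against the striatal marker score (mean log2 CPM of 11 genes), 1 point per library, coloured by exposure, females in the upper row and males in the lower. Rarb and Rxrg climb along the score in both sexes, Rorb and Nr2f1 descend in males, and Rora shows no such slope that passed the test.

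No member passed an adjusted p of 0.05 over all genes for any exposure against corn oil, in either sex, by edgeR's quasi-likelihood test, and 0% of all genes did. At an unadjusted p under 0.05, females had 0 of 27 members for BPA (3.63% of all 18354 genes), 2 for mixture 50 (4.85%) and 1 for mixture 150 (3.08%). Males had 6 of 29 members for BPA (11.3% of all 18426 genes), 4 for mixture 50 (3.47%) and 3 for mixture 150 (4.09%). The 3 exposures share their corn oil libraries, so these counts are not independent of each other. The count in BPA males was 2 without BPA male replicate 1 or without replicate 4, and 3 with the striatal score as a covariate (6.54% of all genes). The median difference over the members lay between -0.01 and 0.04 log2 units in the 6 comparisons, against -0.001 to 0.006 over all genes.

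Rora came nearest to an exposure difference. In males it was at 429, 410.0, 413, 446 and 375 CPM after BPA. Mixture 50 males had a lowest, median and highest level of 316, 360.2 and 391 CPM, mixture 150 males 328, 351 and 427 CPM, and corn oil males 229, 330.3 and 358 CPM. All 5 BPA males thus lay above all 6 corn oil males, while both mixture groups overlapped them. BPA against oil gave 0.39 ± 0.09 log2 units (SE), a 1.31-fold difference, with an edgeR unadjusted p of 0.000109 and an adjusted p of 0.325, the 4th lowest p of all genes, where 0.678% of genes had non-overlapping groups in this direction. DESeq2 gave a difference of 0.38 and an adjusted p of 0.0392, its 1 call among the members, where 7 of the 6422 genes it adjusted were called (0.109%). One corn oil library, replicate 6 at 229 CPM, lay apart from the other corn oil males (319 CPM or more): without it edgeR gave 0.31 with an adjusted p of 0.637 and DESeq2 0.31 with an adjusted p of 0.351, and that DESeq2 fit called 0 of all genes. Mixture 50 and mixture 150 against oil gave 0.17 ± 0.08 and 0.20 ± 0.08 log2 units for Rora in males (edgeR adjusted p = 1.00 and 0.992), and 0.10 and 0.12 without corn oil male replicate 6.

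In females Rora showed no such shift. BPA females had 349, 357 and 384 CPM as lowest, median and highest, mixture 50 females 257, 358 and 436 CPM, mixture 150 females 388, 339.6, 381, 279 and 388 CPM, and corn oil females 382, 309, 422, 409.8 and 413 CPM. All 3 differences from oil were negative, between -0.09 and -0.12 log2 units, with intervals that span 0. The BPA effect in females minus that in males was -0.48 ± 0.14 log2 units (edgeR adjusted p = 0.588), and the same difference was -0.29 ± 0.14 for mixture 50 and -0.32 ± 0.14 for mixture 150 (edgeR adjusted p = 1.00 for both).

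Nr2f1 and Nr2f2, the COUP-TF pair that patterns the forebrain, had their lowest male levels after BPA. Nr2f1 was at 17.0, 19.0, 15.3, 13.0 and 24.6 CPM in BPA males, with 16.4, 23.5 and 30.0 CPM as lowest, median and highest in mixture 50 males, 15.9, 20.0 and 31.7 CPM in mixture 150 males and 19.7, 24.6 and 32.6 CPM in corn oil males. Every BPA male was below the corn oil mean of 26.2 CPM, but the groups overlapped. BPA against oil gave -0.55 ± 0.18 log2 units (edgeR adjusted p = 0.361). Nr2f2 was at 21.9, 27.3, 22.3, 18.8 and 27.3 CPM in BPA males, against 23.5, 29.7 and 35.9 CPM as lowest, median and highest in corn oil males, a difference of -0.33 ± 0.16 log2 units (edgeR adjusted p = 0.438). Ncoa1 (SRC-1), a coactivator of steroid receptors in the hypothalamus, averaged 248 ± 26.2 CPM in BPA males (n = 5) and 218 ± 15.3 CPM in corn oil males (n = 6; SD), a difference of 0.19 ± 0.07 log2 units (edgeR adjusted p = 0.384). For Nr6a1, the germ cell nuclear factor, the difference was 0.26 ± 0.11 log2 units (edgeR adjusted p = 0.409), and 0.17 without corn oil male replicate 6.

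Among the male groups, the striatal marker score was highest on average in BPA males. It averaged 6.34 ± 0.45 in BPA males, 5.57 ± 0.61 in mixture 50 males, 5.96 ± 0.72 in mixture 150 males and 5.75 ± 0.52 in corn oil males (SD, log2 CPM). These averages were not tested against each other. Whether the tissue mix of the punches accounts for the member differences was not tested either. With the score as a covariate, BPA against oil in males came to -0.31 log2 units for Nr2f1, -0.16 for Nr2f2, 0.11 for Ncoa1 and 0.15 for Nr6a1, while Rora stayed at 0.34 (edgeR adjusted p = 0.538). The unadjusted differences for Rarb and Rxrg in BPA males were 0.60 ± 0.37 and 0.56 ± 0.34 log2 units, with intervals from -0.18 to 1.38 and from -0.15 to 1.26.

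**Figure D3:**
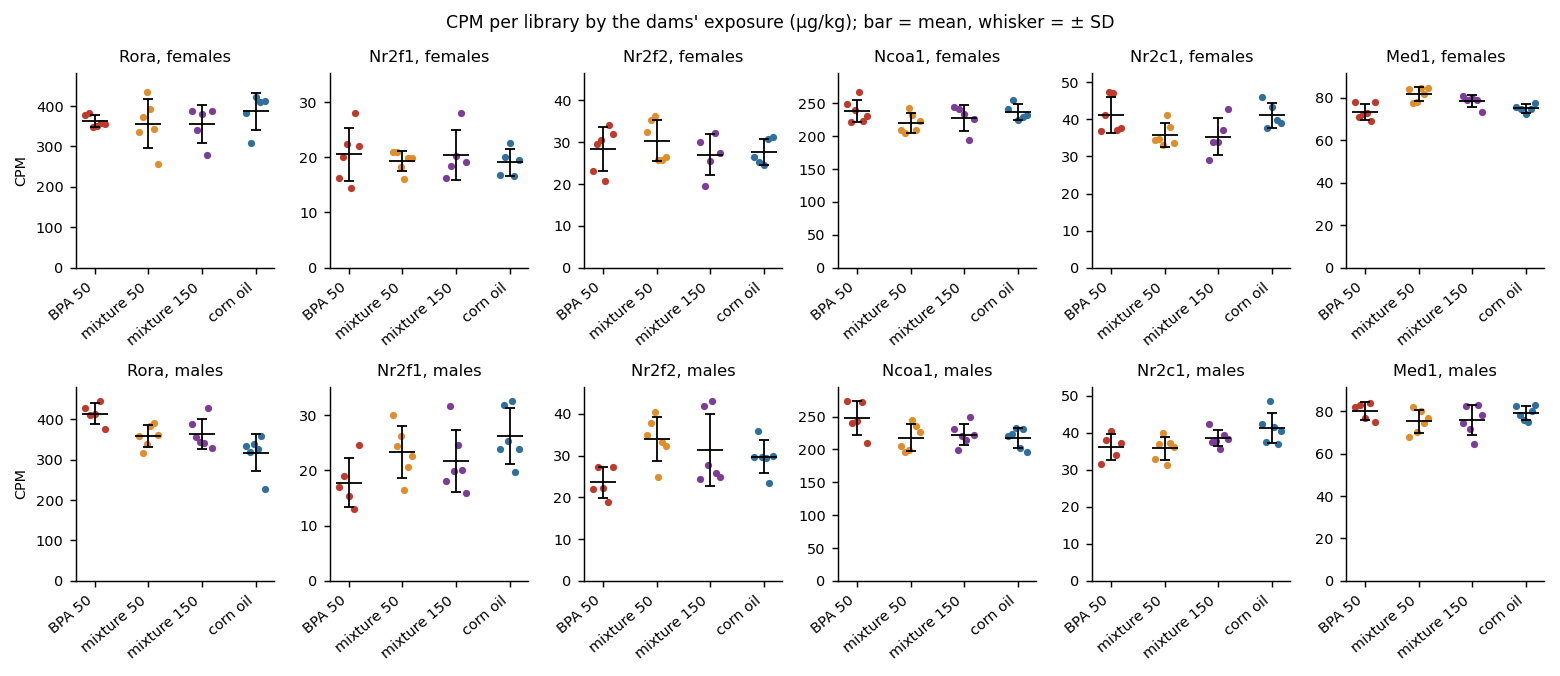
CPM of 6 members in every library by the dams' exposure, females above and males below, with the mean as a bar and the SD as whiskers. In males, all 5 BPA libraries of Rora lie above the corn oil libraries, of which 1 sits apart at 229 CPM, and Nr2c1 is lower on average in each exposure than in corn oil.

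Nr2c1 (TR2), an orphan receptor that recruits coregulators to direct repeats, was below its corn oil mean in all 5 BPA males, all 6 mixture 50 males and 5 of 6 mixture 150 males. Among females this held for 3 of 6 after BPA, 5 of 6 after mixture 50 and 4 of 5 after mixture 150. Females had 36.9, 39.5 and 47.4 CPM (lowest, median, highest) after BPA, 33.1, 34.6 and 41.2 CPM after mixture 50, 29.1, 34.0, 33.9, 37.1 and 42.7 CPM after mixture 150 and 45.9, 37.7, 43.3, 39.9 and 39.1 CPM after corn oil. Males had 31.5, 38.1, 40.4, 34.0 and 37.2 CPM after BPA, 31.2, 36.6 and 39.8 CPM (lowest, median, highest) after mixture 50, 35.6, 38.1 and 42.3 CPM after mixture 150 and 37.1, 41.0 and 48.6 CPM after corn oil. The groups overlapped in each comparison. Differences from oil were 0.01 (BPA), -0.20 ± 0.09 (mixture 50) and -0.22 ± 0.10 (mixture 150) log2 units in females and -0.19 ± 0.08, -0.21 ± 0.08 and -0.10 in males, with edgeR adjusted p from 0.408 to 1.00. The exposures of a sex share 1 corn oil mean. Leaving out each library gave -0.23 to -0.13 for BPA males and -0.24 to -0.16 for mixture 50 males. Both were smallest in size without corn oil male replicate 3, the library at 48.6 CPM. In females the range was -0.24 to -0.16 for mixture 50 and -0.30 to -0.16 for mixture 150.

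Med1, the Mediator subunit that contacts ligand-bound receptors, was at 77.8, 83.0 and 84.9 CPM (lowest, median, highest) in mixture 50 females and at 75.6, 74.7, 72.4, 74.8 and 77.8 CPM in corn oil females. The 6 mixture 50 females lay above the 5 corn oil females by a narrow margin, 77.81 against 77.76 CPM at the boundary, where 0.158% of genes had non-overlapping groups in this direction. The difference was 0.13 ± 0.05 log2 units (edgeR adjusted p = 0.971). Among the members and the 6 comparisons with oil, only Med1 in mixture 50 females and Rora in BPA males had groups without overlap. The share of all genes without overlap, higher and lower, was 0.256% and 0.218% for BPA, 0.158% and 0.185% for mixture 50 and 0.316% and 0.240% for mixture 150 in females. In males it was 0.678% and 0.472%, 0.0651% and 0.0271%, and 0.0706% and 0.0543% for the same exposures.

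Of the rest, 3 members reached an unadjusted p under 0.05 against oil in 1 group of males each, and 1 more is uncertain in identity. Ppard averaged 14.9 ± 1.37 CPM in mixture 150 males and 12.2 ± 1.20 CPM in corn oil males (SD, n = 6 each; 0.29 ± 0.13 log2 units, edgeR adjusted p = 0.992). Rxra, the heterodimer partner most common outside the brain, averaged 7.56 ± 0.97 CPM in mixture 150 males and 9.38 ± 1.60 CPM in corn oil males (-0.29 ± 0.14 log2 units, edgeR adjusted p = 0.992). Hnf4a averaged 2.01 CPM in mixture 50 males and 1.26 CPM in corn oil males, on 3 to 17 counts per library over the whole set. It was counted among the mixture 50 members above. However, Hnf4a passed the filter in males mainly through the mixture 50 libraries, the group where it was higher. Its low p is therefore no support for a difference. Nr1i3, whose tags cannot be told from those of Tomm40l, differed by -0.16 ± 0.06 log2 units in mixture 50 males (edgeR adjusted p = 1.00). The retinoic acid receptors, the other coactivators and Ncor1 stayed at an unadjusted p of 0.05 or more in every comparison with oil. For Ncor1 the 6 differences lay between -0.06 and 0.05 log2 units, and for the members at large the half-width of the 95% interval had a median of 0.19 log2 units in females and 0.22 in males.

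**Figure D4:**
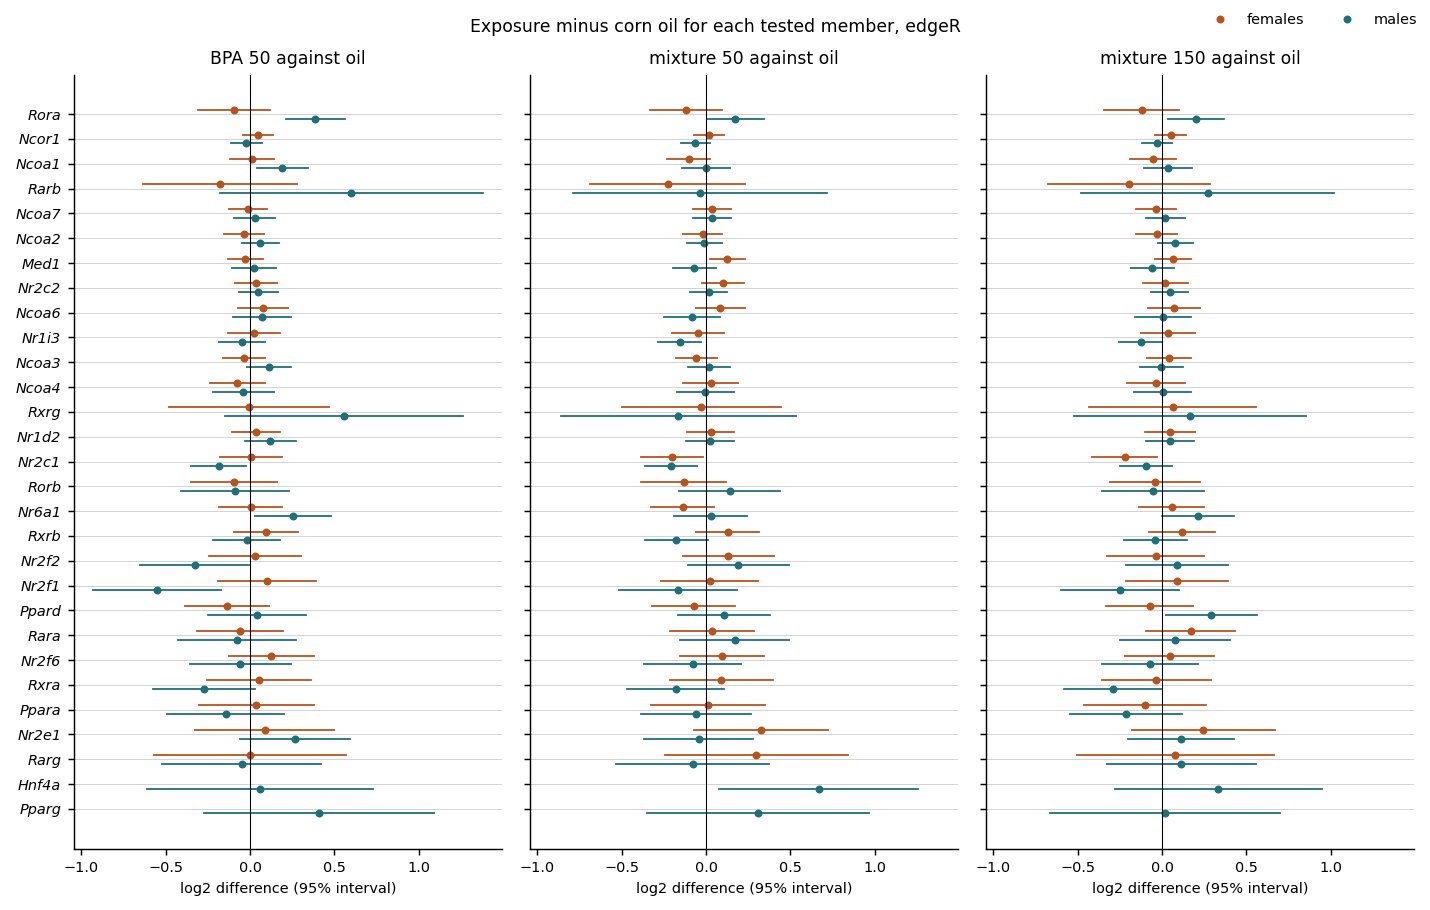
Difference from corn oil (log2, with 95% interval) for each member that could be tested, by exposure, females above males in each row. Most intervals cross 0, those of Rarb and Rxrg are the widest among the well-counted genes, and Rora in BPA males lies at 0.39.

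At matched total dose, mixture 50 was set against BPA. No member passed an adjusted p of 0.05 by edgeR in either sex (0% of all genes). At an unadjusted p under 0.05 there were 2 of 27 members in females (4.21% of all genes) and 6 of 29 in males (12.4%). The male count was 1 without BPA male replicate 4, 2 without replicate 1 or with the striatal covariate, 3 without BPA male replicate 3 or any of mixture 50 male replicates 1, 2, 3 and 6, and 10 without mixture 50 male replicate 4. Nr2f2 in males gave the lowest p of the 6, with 24.9, 34.0 and 40.5 CPM as lowest, median and highest in mixture 50 males and 21.9, 27.3, 22.3, 18.8 and 27.3 CPM in BPA males. All 6 mixture males were above the BPA mean, although the groups overlapped, and the difference was 0.52 ± 0.16 log2 units (edgeR adjusted p = 0.331). With the striatal score as a covariate it was 0.29. Nr2f1 differed by 0.39 ± 0.18 log2 units, and by 0.06 with the covariate. Rora, Ncoa1 and Nr6a1 were lower after mixture 50, by -0.21 ± 0.09, -0.19 ± 0.07 and -0.23 ± 0.11 log2 units. Rxrg averaged 29.6 CPM in mixture 50 males and 49.1 CPM in BPA males, a difference of -0.72 ± 0.34. The striatal score, which Rxrg followed in males, averaged 5.57 in mixture 50 males and 6.34 in BPA males. Whether the tissue mix accounts for these differences was not tested. In females Med1 differed by 0.15 ± 0.05 and Nr2c1 by -0.21 ± 0.09 log2 units, both with an edgeR adjusted p of 1.00.

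At matched BPA content, mixture 150 against BPA gave 1 of 27 members at an unadjusted p under 0.05 in females (2.27% of all genes), Nr2c1 at -0.23 ± 0.09 log2 units. In males 3 of 29 did (4.30% of all genes): Nr2f2 at 0.42 ± 0.16, Rora at -0.19 ± 0.09 and Ncoa1 at -0.16 ± 0.07 log2 units, with edgeR adjusted p = 0.967. These values share the BPA libraries with the comparison at matched total dose. Between the 2 mixture doses, 150 against 50, only Nr6a1 in females was below 0.05 unadjusted, at 0.20 ± 0.09 log2 units (1 of 27; 4.72% of all genes), and 0 of 29 members were in males (2.82%). The median half-width of a member's 95% interval was 0.18 to 0.19 log2 units in these female comparisons and 0.22 to 0.23 in the male ones, so differences of that size lay within the interval of a typical member.

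Maternal care was examined as a slope per 1 SD of the dam's score, with exposure in the model. Scores ran from 91.9 to 546.6 for licking/grooming and from 1000.0 to 2434 for nest attendance, in units the labels do not give. No member passed after adjustment for either score in either sex (edgeR, 0% of all genes). In females 0 of 27 members were below an unadjusted p of 0.05 for licking/grooming (2.76% of all genes) or nest attendance (3.17%). In males 1 of 29 was, Nr2c1 in both cases (4.45% and 2.29% of all genes), at -0.07 ± 0.03 log2 units per SD of licking/grooming (edgeR adjusted p = 1.00) and -0.06 ± 0.03 per SD of nest attendance (edgeR adjusted p = 1.00). The slope of Rarb in males had the widest interval among the well-counted members, from -0.31 to 0.31 per SD of licking/grooming.

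**Figure D5:**
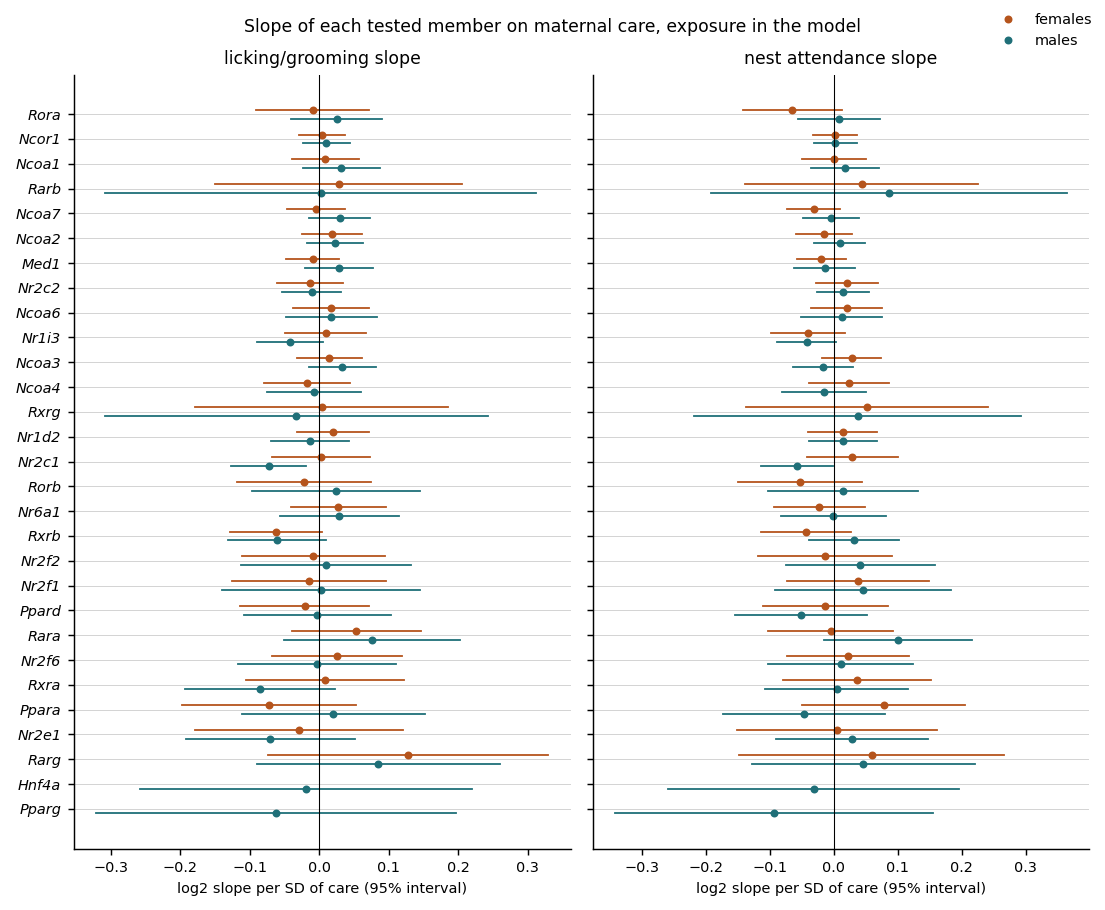
Slope of each member that could be tested (log2 per SD of the dam's score, with 95% interval) on licking/grooming and on nest attendance, females above males in each row. All slopes lie close to 0, and the intervals of Nr2c1 in males end below 0 in both panels.

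Moderation was tested by letting the slope differ between exposures. For licking/grooming, 1 of 27 members in females (6.31% of all genes) and 2 of 29 in males (4.76%) were below an unadjusted p of 0.05, and for nest attendance 1 in females (3.01%) and 0 in males (1.93%). All adjusted p were 0.786 or more (edgeR). Rorb in males had slopes on licking/grooming that differed from the corn oil slope by 0.26 ± 0.16 after BPA, -0.16 ± 0.11 after mixture 50 and 0.30 ± 0.12 log2 units per SD after mixture 150 (edgeR adjusted p = 0.926). Ncoa6 in males differed by -0.06 ± 0.09, 0.09 ± 0.07 and -0.16 ± 0.07 for the same exposures (edgeR adjusted p = 0.926). Its mixture 150 value came to -0.07 without corn oil male replicate 4. With the striatal score as a covariate, the mixture 150 values of Rorb and Ncoa6 came to 0.09 and -0.06. Rxra in females differed most after mixture 150, by -0.36 ± 0.13 (edgeR adjusted p = 0.786), and by -0.23 without mixture 150 female replicate 1. Nr2c1 in females had slopes on nest attendance that differed from the corn oil slope by 0.17 ± 0.08 after BPA, -0.01 ± 0.08 after mixture 50 and 0.37 ± 0.14 after mixture 150 (edgeR adjusted p = 1.00). The mixture 150 value came to 0.02 without corn oil female replicate 2.

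Between the sexes, with exposure in the model, 0 of 30 members passed (0.0946% of 19026 genes did), and 4 were below an unadjusted p of 0.05 (5.19% of all genes). The fit over both sexes treated littermates as independent, although 21 litters gave a library of each sex. With litter as a block, 0 members passed as well. Rxrg averaged 47.2 CPM in females and 37.0 CPM in males, a difference of 0.36 ± 0.14 log2 units (edgeR adjusted p = 0.889). The median striatal score was 6.24 in females and 5.83 in males. Rara averaged 11.4 CPM in females and 10.2 CPM in males, and Nr2c2 75.7 and 72.4 CPM. Pparg averaged 1.09 CPM in females and 1.47 CPM in males (-0.43 ± 0.18), on 2 to 14 counts per library. It was too low to test in females alone. In the fit over both sexes Pparg passed the filter mostly through male libraries, the sex where it was higher. Although counted among the 4, it is therefore no support for a sex difference. The exposure effects differed between the sexes at an unadjusted p under 0.05 for 2 of 30 members with BPA (7.12% of all genes), 3 with mixture 50 (4.79%) and 2 with mixture 150 (3.79%). Rora was among them each time, with the values given above. Hnf4a, too low to test in females alone, was among the 30 members tested, and a low p for it would be no support for a difference. Nr2f1 had a BPA effect that was 0.65 ± 0.24 log2 units greater in females than in males (edgeR adjusted p = 0.671).

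Genes around these receptors were read from the same fits, by list. None of 11 tested genes of retinoid synthesis, binding and breakdown, 13 PPAR targets of fatty acid use, 14 clock genes, 5 genes of vitamin D and xenobiotic metabolism or 23 coregulator partners passed an adjusted p of 0.05 in any of the 6 comparisons with oil (edgeR). The largest count below an unadjusted p of 0.05 was in BPA males, with 4 of 11 retinoid and 4 of 14 clock genes, all higher (5.91% of all genes were), 3 of 23 coregulator partners, all higher, and 3 of 13 PPAR targets, all lower (5.43%). These list counts were not repeated with a library left out or with the striatal score as a covariate. In BPA males Rdh10, which oxidises retinol on the way to retinoic acid, averaged 10.5 ± 2.56 CPM, against 7.69 ± 1.10 CPM in corn oil males. Tef and Per3, clock output and clock genes, averaged 45.6 ± 2.79 and 32.4 ± 2.14 CPM in BPA males and 35.8 ± 4.60 and 26.7 ± 3.96 CPM in corn oil males. Ppargc1a, the coactivator of PPARs and of mitochondrial genes, averaged 330 ± 24.5 CPM and 285 ± 26.9 CPM, and Fabp5, a fatty acid carrier, 336 ± 42.0 CPM and 437 ± 84.6 CPM, in the same groups (SD, n = 5 and 6). Adjusted p for these 5 genes was 0.360 to 0.408. In mixture 50 females Rbp4, the retinol carrier, averaged 20.4 ± 7.16 CPM and in corn oil females 11.4 ± 2.53 CPM (edgeR adjusted p = 0.971). Mixture 150 females and corn oil females averaged 13.9 and 11.3 CPM for Plin2, a lipid droplet coat protein, and 1.38 and 2.58 CPM for Cyp27a1, the sterol hydroxylase (edgeR adjusted p = 1.00). Mixture 150 males and corn oil males averaged 64.8 and 58.1 CPM for Abcb1a, the efflux pump of the blood-brain barrier, and 21.9 and 26.4 CPM for the acetyltransferase Kat2b (edgeR adjusted p = 0.992).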

How the data were processed

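Gene counts of 45 libraries were analysed. What the authors deposited are unnormalized gene counts in separate female and male tables, whose names mark outlying libraries as removed. Per the submitters' processing notes, cutadapt 1.18, STAR 2.7.3a, SAMtools 1.10, bedtools 2.27.1 and build mRatBN7.2 were used. How tags were assigned to genes, with which strand setting, and whether duplicates were collapsed is not given in the sources used here. Per the labels' protocols, the tissue was frozen without fixation, although the RNA kit is one for fixed tissue. All count columns matched a library by name (0 unmatched).

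Tests of these counts used edgeR 4.0.16 in R 4.3.3 (filterByExpr with minimum count 10 and minimum total 15, TMM, robust quasi-likelihood F-tests, Benjamini-Hochberg over all genes, threshold 0.05). Each sex had 1 fit over its 4 exposures, and sex effects used all 45 libraries without a litter term. SE values belong to edgeR's log2 differences. The exposure and slope fits within a sex were run on counts simulated gene by gene, without litter or tissue differences shared between genes. The fits of moderation and of both sexes were not simulated. Marker scores are means of log2 CPM (prior count 2). Correlations, with each exposure's mean removed, were tested two-sided by 100000 permutations within exposures (Python 3.11.15, numpy 2.4.6). DESeq2 1.42.0, voom of limma 3.58.1, RLE scaling, no filter, a striatal covariate, a block on replicate number or litter, fits of only the groups compared, a prior count of 0.5 and leaving out each library were the alternatives. Figures used matplotlib 3.10.9. Promoters came from RefSeq, build GRCr8, and matched 30 of 35 members by symbol.

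The members and lists were chosen with earlier results of these data known. All members are accounted for. In the exposure, care and sex comparisons, where none passed by edgeR, values are given for members among the 3 lowest p in each direction. For the marker scores, values are given for only some of the members that passed. The listed neighbours are the 2 genes of lowest p in each list over the 6 comparisons with oil.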

Additional observations from a re-analysis of the deposited data

Results flagged for a closer look

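Of 224 sets of 1 member in 1 group of 5 or 6 libraries, 12 (5.36%) held a library far from the others by Dixon's criterion, where chance gives about 1 in 20, and they fell on 12 different libraries. Rora was at 228.6 CPM in corn oil male replicate 6, with the next at 319.4 CPM. Rxrg was at 22.82 CPM in BPA male replicate 5, with the next at 53.13 CPM, and that library also had the lowest Rarb of its group, 153 CPM, and the lowest striatal score, 5.68. The other low value was Med1 at 73.58 CPM in mixture 150 female replicate 5. The rest were high values: Rara at 16.40 CPM in mixture 50 male replicate 4, Rxra at 9.345 CPM in BPA male replicate 2, Ppard at 17.51 CPM in mixture 150 male replicate 2, Nr1d2 at 43.96 CPM in corn oil male replicate 4, Nr1i3 at 62.15 CPM in mixture 150 male replicate 6, Nr6a1 at 38.81 CPM in mixture 50 female replicate 3, Ncoa2 at 92.36 CPM in corn oil male replicate 5, Ncoa3 at 64.61 CPM in mixture 150 female replicate 4 and Ncoa4 at 68.91 CPM in mixture 50 female replicate 6.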

How the results depend on the processing

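The count of members past the threshold was 0 by edgeR in every comparison. Over all comparisons and alternatives, counts of members were the same in 660 cases and differed in 1, DESeq2 for BPA against oil in males, with 1 member, Rora (0.38 log2 units, adjusted p = 0.0392). DESeq2 without corn oil male replicate 6, chosen after seeing the data, gave 0. DESeq2 gave no adjusted p in that comparison to the 19 members of lower counts. Leaving out each library gave Rora 0.31 to 0.43 log2 units in that comparison, with edgeR adjusted p from 0.116 to 0.637. Replicate numbers did not pair the libraries (median correlation of same-numbered libraries 0.020 in females and 0.002 in males). With the replicate number as a block, 0 members passed, and the slope of Ncoa2 on licking/grooming in females turned to -0.0085 (0.02 without the block). The difference of Ppard's slope on nest attendance between mixture 150 and oil in females was 0.33, and -0.19 to 0.56 with each library left out, the lowest without corn oil female replicate 2. The cause was not tested in either case. Over all genes, the joint test of licking/grooming by exposure in females called 0 genes by edgeR, 12 with no filter, 13 by DESeq2, 7 without mixture 150 female replicate 1 and 1 with the striatal covariate, none a member. DESeq2 called 4 genes for the licking/grooming slope in males and 1 in females, and 1 gene was called in 6 other combinations of comparison and alternative, none a member either. The counts of members related to striatal and preoptic scores were the same with a prior count of 0.5. Depth limits the 8 members named as too low to test.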

Other observations

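Littermates offered a second view of the members. Over 21 litters with a female and a male library, after each exposure's mean was removed, 0 of 27 members had levels that passed after adjustment, as did 0% of 18137 genes. At an unadjusted p under 0.05 there were 2 members (8.57% of all genes). Nr2c2 gave r = 0.562 (rho = 0.571, permutation p = 0.0101, adjusted p = 0.442) and Nr1d2, the clock repressor, r = 0.543 (rho = 0.551, permutation p = 0.0203, adjusted p = 0.496). Without the 2 litters farthest from the median female level, r was 0.505 and 0.624. The median r over the members was 0.077, against 0.117 over all genes. Rarb and Rxrg, which varied most among the members above 20 CPM, were not among the 2.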
